A study of Arabidopsis thaliana with 16 samples.

Results

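Arabidopsis thaliana plants of the wild-type accession Col-0 that had been sprayed with jasmonic acid (JA) as seedlings were given JA again as adults, and the leaf transcriptome of that second response is described here. The comparison takes 8 of the 16 RNA-seq libraries of the series, chosen by their labelled treatments. The 4 JA_W libraries come from plants sprayed with 1 mM JA at 2 weeks of age and with water at 5 weeks, and the 4 JA_JA libraries from plants that had the same seedling spray and then 0.1 mM JA at 5 weeks. Rosette leaves were taken 4 h after the second spray. The seedling JA spray is shared by both groups, as are the surfactant Silwet L-77 at 0.02% and an ethanol content matched to the JA solutions. Each library pools 8 leaves of 2 plants in equal number, so plant-to-plant spread is averaged within a library. The remaining 8 libraries, 4 each of W_W (water at both ages) and W_JA (water as seedlings, 0.1 mM JA at 5 weeks), enter the same statistical fit. They are used below only to show where the response of JA-history plants differed and, for W_W, how like it each library was. Whole leaves were sampled, so fewer cells of a type and less RNA per cell cannot be told apart.

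Jasmonates are lipid-derived hormones that leaves make on wounding and on attack by chewing insects. A lipoxygenase, allene oxide synthase and allene oxide cyclase act on linolenic acid in the chloroplast, the reductase OPR3 and beta-oxidation finish the molecule in the peroxisome, and conjugation to isoleucine gives the active form. That conjugate joins the receptor COI1 to JAZ repressors, which are then degraded, and MYC-type bHLH factors are released. Among the genes then transcribed are those of JA synthesis, those that oxidise, hydrolyse or sulfate the hormone, and the JAZ repressors themselves. In Arabidopsis leaves the pathway is known for storage proteins, glucosinolates, beta-glucosidases of endoplasmic reticulum (ER) bodies and volatile terpenes, and for restraint of growth.

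The 8 libraries held from 33515434 to 34319939 reads assigned to genes, and 19224 of 34262 listed genes had enough reads to be tested. In a principal component analysis of the 8 libraries the first component carried 65.9% of the variance and separated JA_JA from JA_W. The second carried 13.8% and set apart 1 library of each group, JA_W replicate 1 and JA_JA replicate 4. Each was also the library of its group most like the W_W libraries in log2 CPM. The mean correlation with W_W was 0.926 for JA_W replicate 1 and 0.892 to 0.907 for the rest of JA_W. For JA_JA replicate 4 it was 0.913, against 0.878 to 0.896 for the rest of JA_JA. The cause was not tested. Of the 353 genes raised more than 4-fold, JA_W replicate 1 was the highest JA_W library for 216 and JA_JA replicate 4 the highest JA_JA library for 173. Results are from all 8 libraries. Leaving out both of those libraries, a choice made after the data were seen, gave 2821 genes higher and 3122 lower. Leaf identity was clear from the photosynthesis genes CA1, FBA2 and GAPB at over 1000 CPM in each library. A list of 7 mesophyll and leaf markers held CA1 but not FBA2 or GAPB. Of its members none rose, CA1 fell and 6 were not called, with a median log2 change of -0.03. With library-total scaling 2 fell. Of the markers of other cell types, 4 of 7 root markers had no reads in these libraries. COBL9 had 3 reads in JA_W and 2 in JA_JA, and IRT1 had 2 and 1. SCR, the 1 root marker tested, stood at 45.5 to 56.3 CPM in JA_W and 39.1 to 49.1 CPM in JA_JA and was not called. Of 6 flower markers only AG was tested, at 0.221 to 0.713 CPM in JA_W and 0.326 to 0.505 CPM in JA_JA, and it was not called. None of 6 guard cell markers was called (1 higher by DESeq2, and 3 higher without JA_W replicate 1 and JA_JA replicate 4), and CYCA2;3 was the 1 of 8 dividing-cell markers that rose. PP2-A1 and FTIP1 were the 2 of 5 phloem markers that rose, though none of the 5 was called with library-total or upper-quartile scaling, the summed level of the 5 being 624 to 745 CPM in JA_W and 622 to 1030.3 CPM in JA_JA. The part of these markers in the results was not tested.

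After the JA challenge 2964 genes (15.4% of those tested) were higher in JA_JA than in JA_W and 3174 (16.5%) were lower, at an adjusted p under 0.05 by edgeR's quasi-likelihood test. Each count of called list or family members in this comparison is to be set beside these shares. Values are CPM, read counts put on a common library size with TMM scaling, and a fold is a ratio of group means on that scale. The value after ± is a standard error worked back from the test, the log2 change's size over the square root of its F statistic. Each belongs to its own test, so the values of an interaction and of its 2 log2 changes need not combine. Scaling by library totals alone gave 2096 higher and 4437 lower, a share of higher calls of 32.1% against 48.3%. The 4 values of each group did not overlap for 3111 genes higher (16.2%) and 3323 lower (17.3%) in JA_JA. The rises were the larger changes. More than 2-fold, 936 genes (4.87%) rose and 556 (2.89%) fell. More than 4-fold, 353 genes (1.84%) rose and 108 (0.562%) fell, and more than 16-fold, 108 (0.562%) rose and 7 (0.0364%) fell. The median log2 change of all genes tested was -0.01. Genes raised more than 4-fold took from 0.973% to 1.33% of the reads of the JA_W libraries and from 8.85% to 10.6% of those of the JA_JA libraries.

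Lipoxygenase 2 (LOX2), which opens JA synthesis in the chloroplast, gained the most reads of all genes called. Its level was 4248, 3731, 3517 and 4116 CPM in JA_W replicates 1 to 4 and 20983, 24951, 25257 and 30443 CPM in JA_JA replicates 1 to 4. Every JA_JA library lay far above every JA_W library, and the change was 6.51-fold, log2 change 2.70 ± 0.18, edgeR adjusted p = 8.2e-09. Per kilobase of exon, its level moved from rank 61 to rank 3 among 19138 genes. The next enzymes rose with it. AOS, allene oxide synthase, stood at 847, 914, 825 and 887 CPM in JA_W and 2487, 2781, 3060.1 and 3719 CPM in JA_JA, a change of 3.47-fold, log2 change 1.79 ± 0.14, edgeR adjusted p = 5.9e-08. The allene oxide cyclase gene AOC2 stood at 795, 573, 622 and 632 CPM in JA_W and 2667, 3018, 3369 and 3737 CPM in JA_JA, a change of 4.88-fold, log2 change 2.29 ± 0.14, edgeR adjusted p = 2.2e-09. AOC1, a second gene for the same step, rose 11.4-fold and OPR3 rose 6.02-fold, with no overlap of the groups for either. In JA_W, replicate 1 was the highest library for AOC1, AOC2 and OPR3. Of 17 tested genes of JA synthesis 12 rose and none fell, or 12 and 1 with library-total scaling, when only the 2 groups were fitted and without JA_W replicate 1 and JA_JA replicate 4, with a median log2 change of 1.18.

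Of 13 tested genes of conjugation, turnover and methylation 11 rose and none fell, and the median log2 change was 4.88. ILL5, an amidohydrolase-like gene beside the JA-conjugate hydrolase gene IAR3, stood at 0.415, 0.120, 0.238 and 0.0910 CPM in JA_W and 124, 114, 144 and 155 CPM in JA_JA. It was close to undetected in all 4 JA_W libraries and rose 621-fold, log2 change 9.23 ± 0.55, edgeR adjusted p = 1.5e-08. JRG21, which encodes an oxygenase of the 2-oxoglutarate-dependent kind, stood at 0.830, 0.269, 0.564 and 0.243 CPM in JA_W and 212, 199, 278 and 414 CPM in JA_JA. Its lowest JA_JA library, replicate 2, was still over 100 CPM, and the change was 579-fold, log2 change 9.15 ± 0.53, edgeR adjusted p = 8.5e-09. ST2A, the sulfotransferase that acts on hydroxylated JA, stood at 0.609, 0.209, 0.564 and 0.425 CPM in JA_W and 217, 177, 157 and 223 CPM in JA_JA, a change of 429-fold, log2 change 8.72 ± 0.41, edgeR adjusted p = 3.5e-10. CYP94B3, the cytochrome P450 that hydroxylates the JA-isoleucine conjugate, was uneven among the challenged plants, at 0.138, 0, 0.0594 and 0 CPM in JA_W and 11.03, 6.22, 20.9 and 44.6 CPM in JA_JA. JA_JA replicate 4 held the highest value and replicate 2 the lowest, without overlap with JA_W, and the change was 419-fold, log2 change 8.55 ± 1.00, edgeR adjusted p = 1.5e-05. Without JA_JA replicate 4 its log2 change was 7.88, and without JA_W replicate 1 it was 9.77.

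Of 13 tested JAZ repressor genes 10 rose and none fell, with a median log2 change of 1.89. JAZ10 stood at 1.3004, 0.658, 0.742 and 0.455 CPM in JA_W and 20.3, 12.3, 20.7 and 20.6 CPM in JA_JA, a change of 23.4-fold, log2 change 4.53 ± 0.35, edgeR adjusted p = 1.2e-07. JAZ7 reached only 0.138, 0.0299, 0.0594 and 0.121 CPM in JA_W and 3.36, 2.49, 4.77 and 3.56 CPM in JA_JA, but the groups were as clearly apart (40.6-fold, log2 change 5.27 ± 0.49, edgeR adjusted p = 5.8e-07). JAZ5 stood at 7.28, 2.78, 3.03 and 2.06 CPM in JA_W and 34.6, 30.7, 29.8 and 36.9 CPM in JA_JA. Replicate 1 was the highest JA_W library for JAZ10, JAZ7 and JAZ5, and remained below every JA_JA library. JAZ5 rose 8.72-fold and JAZ8 11.3-fold, the log2 change of JAZ8 being 3.44, or 4.18 without JA_W replicate 1. Of 13 tested genes of reception and transcription 7 rose and 1 fell, with a median log2 change of 0.34. JAM1, a bHLH repressor of JA responses, stood at 19.1, 18.21, 17.5 and 19.0 CPM in JA_W and 40.7, 37.3, 38.2 and 40.0 CPM in JA_JA, a change of 2.12-fold, log2 change 1.08 ± 0.14, edgeR adjusted p = 1.5e-05. MYC4, an activating bHLH factor, went the other way at 49.2, 58.2, 53.0 and 48.7 CPM in JA_W and 41.1, 37.7, 39.2 and 37.1 CPM in JA_JA. The groups did not overlap, and the fall was 1.35-fold, log2 change -0.43 ± 0.07, edgeR adjusted p = 1.8e-04. NAC019, a NAC factor of JA and abscisic acid responses, rose 9.46-fold with JA_JA replicate 4 the highest library.

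**Figure D1:**
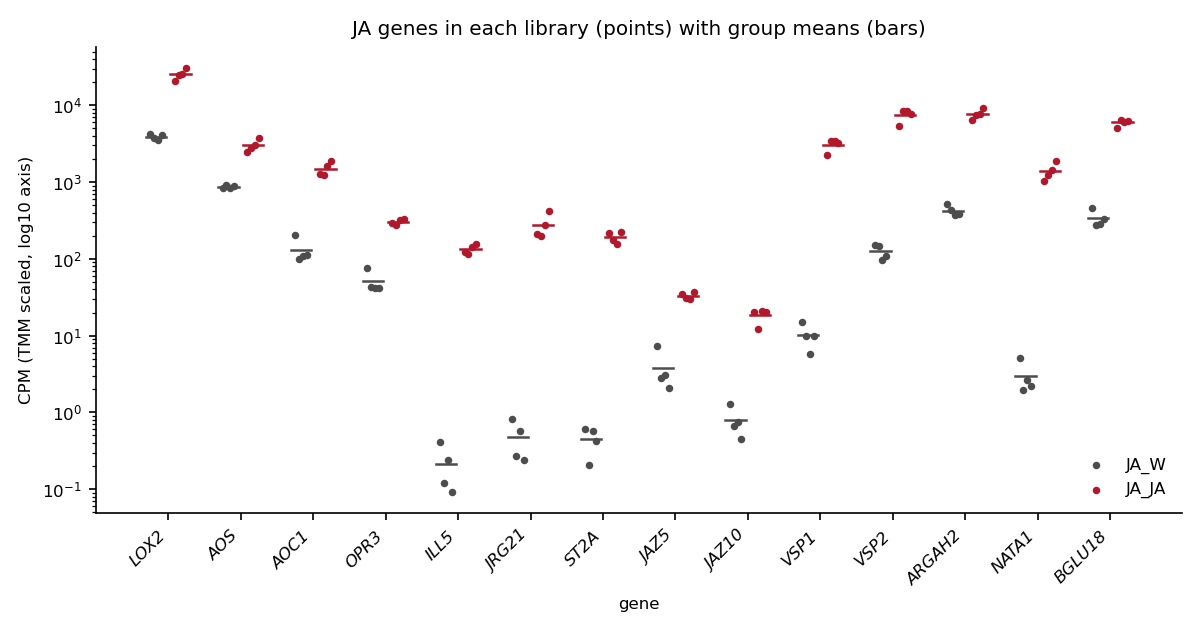
CPM per library on a log10 axis for 14 genes of JA synthesis, turnover, repression and output (horizontal axis), with 4 JA_W and 4 JA_JA libraries as points and group means as bars. The groups are separate for each gene shown, by 3.47-fold for AOS at the least and 621-fold for ILL5 at the most.

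The storage and defence products that JA is known for in leaves were among the largest gains in reads. VSP2, a vegetative storage protein with acid phosphatase ancestry, stood at 150.1, 147, 97.8 and 109 CPM in JA_W and 5329, 8313, 8358 and 7743 CPM in JA_JA. Replicate 1 was the lowest JA_JA library and still more than 30 times the highest JA_W library. VSP2 moved from rank 1081 to rank 8 per kilobase of exon. Its neighbour VSP1 stood at 14.9, 9.78, 5.79 and 9.80 CPM in JA_W and 2254, 3402, 3385 and 3246 CPM in JA_JA and moved from rank 9509 to rank 40. CORI3, a cystine lyase-like protein named for its induction by coronatine, rose 8.39-fold. The L-aspartase-like gene AT4G18440 rose 7.10-fold, and AT3G28220, a TRAF-like protein, rose 18.3-fold.

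Arginine metabolism split between members of the same enzyme class. ARGAH2, an arginase, stood at 513, 433, 371 and 387 CPM in JA_W and 6527, 7424, 7639 and 9222 CPM in JA_JA, a change of 18.1-fold, log2 change 4.18 ± 0.16, edgeR adjusted p = 7.2e-12. Its relative ARGAH1 stood at 20.6, 22.6, 22.001 and 22.1 CPM in JA_W and 16.2, 16.6, 19.2 and 19.9 CPM in JA_JA and fell (1.22-fold, log2 change -0.28 ± 0.09, edgeR adjusted p = 0.0187). That small fall was not called without JA_JA replicate 1 (adjusted p = 0.0694), JA_JA replicate 2 (adjusted p = 0.106) or JA_W replicate 2 (adjusted p = 0.0533). The arginine decarboxylase gene ADC2 stood at 136, 100.1, 87.7 and 90.3 CPM in JA_W and 852, 860.2, 852 and 820.4 CPM in JA_JA. All 4 JA_JA libraries were within a narrow range, and the rise was 8.18-fold, log2 change 3.03 ± 0.21, edgeR adjusted p = 1.5e-08. ADC1, for the same step, fell 1.29-fold from a higher starting level in CPM. NATA1, an acetyltransferase whose known substrate is ornithine, stood at 5.04, 1.94, 2.67 and 2.18 CPM in JA_W and 1040.2, 1249, 1447 and 1892 CPM in JA_JA. It moved from rank 13622 to rank 65 per kilobase of exon, and the change was 476-fold, log2 change 8.89 ± 0.46, edgeR adjusted p = 9.8e-10. The proline dehydrogenase gene ERD5 rose 2.67-fold, and AT5G38710, the gene most like it by annotation, rose 5.84-fold. Of the 16 tested genes of arginine, proline and polyamine metabolism 7 rose and 3 fell, beside 15.4% and 16.5% of all genes. The median log2 change was 0.23.

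All 12 tested genes of ER bodies and jacalin lectins rose, with a median log2 change of 6.08. ER bodies are compartments that keep beta-glucosidases apart from their substrates until a cell is broken. BGLU18, the beta-glucosidase of leaf ER bodies, stood at 458, 280.0, 284 and 332 CPM in JA_W and 5049, 6519, 6119 and 6228 CPM in JA_JA, a change of 17.7-fold, log2 change 4.14 ± 0.18, edgeR adjusted p = 3.6e-11. PYK10, the root form of the same enzyme class, had 2 reads over the 4 JA_W libraries and stood at 0, 0.0299, 0 and 0.0303 CPM in JA_W and 11.8, 9.69, 15.1 and 15.7 CPM in JA_JA. No JA_W library reached the lowest JA_JA library, and the rise was 885-fold by reads (95% counting interval 245 to 7311), edgeR adjusted p = 1.0e-09. JAL34, a jacalin lectin, stood at 1.77, 1.02, 0.980 and 1.12 CPM in JA_W and 130.5, 127, 181 and 247 CPM in JA_JA, a change of 140.3-fold, log2 change 7.12 ± 0.35, edgeR adjusted p = 4.8e-10. PBP1 (AT3G16420), a lectin that binds PYK10, rose 79.5-fold. JAL33 had no read in JA_W and rose at least 51.2-fold, edgeR adjusted p = 1.0e-04.

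All 7 tested genes of volatile terpene and aldehyde synthesis rose, with a median log2 change of 5.92. TPS10 (AT2G24210), a monoterpene synthase, stood at 0.360, 0.239, 0.297 and 0.546 CPM in JA_W and 150.4, 227, 258 and 218 CPM in JA_JA, a change of 592-fold, log2 change 9.20 ± 0.26, edgeR adjusted p = 3.1e-13. TPS04, the geranyllinalool synthase that begins homoterpene formation, stood at 0.498, 0.0598, 0.0594 and 0.121 CPM in JA_W and 14.9, 10.6, 16.5 and 39.1 CPM in JA_JA. JA_JA replicate 4 was more than 2 times any other library for TPS04, and the groups did not overlap (109.8-fold, log2 change 6.71 ± 0.90, edgeR adjusted p = 5.6e-05). BSMT1, a methyltransferase that makes methyl benzoate and methyl salicylate, rose 174-fold, and TPS02, a terpene synthase, rose 75.7-fold by reads (95% counting interval 20.6 to 631). Without JA_W replicate 1 the log2 change of TPS04 went from 6.71 to 7.92 and that of BSMT1 from 7.30 to 8.51, and without JA_W replicate 2 that of TPS02 went from 5.92 to 8.24. Of 3 tested Kunitz protease inhibitor genes 2 rose. AT1G73325 stood at 15.9, 5.05, 3.71 and 4.49 CPM in JA_W and 102, 125, 134 and 139.8 CPM in JA_JA, with JA_W replicate 1 the highest unchallenged library, and rose 17.2-fold, log2 change 4.09 ± 0.39, edgeR adjusted p = 1.9e-06. Without that library its log2 change was 4.82. DR4 rose 16.1-fold.

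Indole glucosinolates carry the indole ring of tryptophan, and 16 of 23 tested genes of this pathway and of tryptophan synthesis rose while 1 fell, with a median log2 change of 1.16. CYP81F4, which prepares the ring nitrogen for a methoxy group, had no read in any JA_W library and stood at 0, 0, 0 and 0 CPM in JA_W and 3.33, 5.17, 5.06 and 4.98 CPM in JA_JA. All 583 reads in these 8 libraries were thus in JA_JA, a rise of at least 209-fold, edgeR adjusted p = 3.7e-08. Of its exon sequence 88.2% overlaps a gene on the opposite strand, AT4G37409, and the strand setting of the counting is not given in the sources used here, so reads of the pair cannot be told apart. IGMT5, the methyltransferase for the next step, stood at 4.32, 3.02, 3.21 and 2.49 CPM in JA_W and 119, 119, 141 and 169.6 CPM in JA_JA, a change of 42.0-fold, log2 change 5.39 ± 0.20, edgeR adjusted p = 7.3e-12. CYP81F2, which oxidises another position of the ring, was the 1 gene that fell, at 4.45, 4.69, 5.11 and 5.89 CPM in JA_W and 2.24, 0.820, 1.31 and 1.95 CPM in JA_JA. The groups did not overlap (3.19-fold, log2 change -1.67 ± 0.32, edgeR adjusted p = 9.1e-04).

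The 10 largest rises were ranked by fitted log2 change, which for genes with almost no JA_W reads depends on the fit, so their order against genes such as ST2A is uncertain. They also held a methionine sulfoxide reductase gene, MSRB7, with no read in JA_W and 0, 0, 0 and 0 CPM in JA_W and 4.45, 1.80, 3.95 and 6.52 CPM in JA_JA. JA_JA replicate 2 was the lowest of the challenged libraries, and the rise was at least 189-fold, edgeR adjusted p = 0.00216. Of its 50-base stretches 18.16% occur elsewhere in the genome, so some of its reads may be lost or shared in counting. RAP2.6, an ERF-type transcription factor, stood at 0.0277, 0.0299, 0.0297 and 0.0303 CPM in JA_W and 25.05, 15.6, 25.01 and 27.5 CPM in JA_JA, a change of 792-fold, log2 change 9.46 ± 0.43, edgeR adjusted p = 1.4e-10. AT5G26260, a TRAF-like protein, rose 597-fold, and the papain-type protease gene AT4G11310 rose at least 90.9-fold, edgeR adjusted p = 5.3e-06.

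The 250 bases before the annotated gene start were searched on both strands for 5 short motifs, using RefSeq sequence of build TAIR10.1. AACGTG, the T/G-box bound by MYC-type bHLH factors, was in 22.1% of the windows of the 353 genes raised more than 4-fold, in 8.33% of the 108 lowered and in 7.31% of 19137 windows of tested genes. CACGTG, the G-box, was in 15.3%, 6.48% and 7.42%. A shared ACGTG core is preceded by A in the first motif and by C in the second, so 1 core counts once, and either of the pair was in 34.0%, 14.8% and 13.9%. GCCGCC, the GCC-box of ERF factors, was in 1.13%, 0.926% and 2.03%, TTGACC, a W-box of WRKY factors, in 12.7%, 18.5% and 12.2%, and TATAAA in 55.5%, 50.0% and 45.6%. Matches describe the letters of these windows and no binding was measured. Of the 10 largest rises 6 held AACGTG or its complement, and their windows are printed 5′ to 3′ on the gene's strand, in lower case with the T/G-box and G-box matches in capitals.

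MSRB7 (chr4:11585543-11585792, minus strand): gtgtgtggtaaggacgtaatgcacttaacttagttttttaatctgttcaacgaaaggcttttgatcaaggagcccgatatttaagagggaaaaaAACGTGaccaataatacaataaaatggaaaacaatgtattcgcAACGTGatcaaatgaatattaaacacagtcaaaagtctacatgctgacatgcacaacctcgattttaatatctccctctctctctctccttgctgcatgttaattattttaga
RAP2.6 (chr1:16263555-16263804, plus strand): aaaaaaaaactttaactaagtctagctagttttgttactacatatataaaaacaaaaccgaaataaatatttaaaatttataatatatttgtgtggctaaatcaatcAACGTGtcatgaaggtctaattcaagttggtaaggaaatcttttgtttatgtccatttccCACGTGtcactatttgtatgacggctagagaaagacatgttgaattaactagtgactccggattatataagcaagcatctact
TPS10 (chr2:10294036-10294285, plus strand): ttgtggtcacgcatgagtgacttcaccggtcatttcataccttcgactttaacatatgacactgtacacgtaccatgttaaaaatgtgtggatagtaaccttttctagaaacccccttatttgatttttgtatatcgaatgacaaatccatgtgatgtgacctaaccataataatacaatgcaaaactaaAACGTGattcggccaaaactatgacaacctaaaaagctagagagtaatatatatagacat
JRG21 (chr3:20769411-20769660, minus strand): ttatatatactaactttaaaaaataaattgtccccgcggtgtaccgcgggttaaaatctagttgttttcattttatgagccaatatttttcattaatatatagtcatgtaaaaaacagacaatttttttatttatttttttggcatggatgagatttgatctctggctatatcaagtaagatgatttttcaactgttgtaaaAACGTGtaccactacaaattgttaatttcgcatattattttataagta
AT4G11310 (chr4:6883263-6883512, plus strand): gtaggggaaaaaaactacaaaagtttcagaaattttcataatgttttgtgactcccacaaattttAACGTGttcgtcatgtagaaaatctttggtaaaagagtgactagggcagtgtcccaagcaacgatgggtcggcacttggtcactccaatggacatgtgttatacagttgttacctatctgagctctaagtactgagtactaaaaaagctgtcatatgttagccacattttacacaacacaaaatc
NATA1 (chr2:16297860-16298109, plus strand): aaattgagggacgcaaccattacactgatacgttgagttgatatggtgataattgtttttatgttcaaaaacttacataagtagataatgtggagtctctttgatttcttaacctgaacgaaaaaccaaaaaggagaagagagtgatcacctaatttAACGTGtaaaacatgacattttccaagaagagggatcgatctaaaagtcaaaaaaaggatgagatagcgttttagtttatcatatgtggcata

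Some raised genes lay beside each other on the chromosomes. In the order of tested genes, 76 of the 353 genes raised more than 4-fold (21.5%) had another such gene as direct neighbour, in 33 runs. Of the 108 lowered genes 4 (3.70%) did, in 2 runs, and shares of lists of such unequal length cannot be compared directly. The 353 raised genes were 1.84% of those tested, and the share of neighbours expected of that many genes was not worked out. The longest run was named after its values were seen and held NSP1, PBP1 (AT3G16420), JAL33, JAL34 and JAL35 on chromosome 3, over 33142 bases. JAL34 and JAL35 overlap each other on opposite strands over 20.7% and 23.8% of their exon sequence. AOC1, AOC2 and AOC3 formed another run, as did VSP2 with VSP1, so the 76 include genes of the same family.

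Of 18 tested genes of sulfate uptake and assimilation, which feed glucosinolate and glutathione synthesis, 10 rose and 3 fell with a median log2 change of 0.49. Over all genes 15.4% rose and 16.5% fell. SULTR4;1, a vacuolar sulfate exporter, stood at 42.0, 32.9, 33.6 and 35.1 CPM in JA_W and 86.0, 80.1, 91.9 and 93.1 CPM in JA_JA, a change of 2.44-fold, log2 change 1.29 ± 0.12, edgeR adjusted p = 3.4e-07. APR3, a reductase of activated sulfate, stood at 266, 248, 228 and 232 CPM in JA_W and 115, 120.2, 111 and 118 CPM in JA_JA and fell 2.10-fold, log2 change -1.07 ± 0.10, edgeR adjusted p = 8.6e-07. DHAR1, a dehydroascorbate reductase, stood at 180.5, 227, 184 and 169.5 CPM in JA_W and 1745, 2020.1, 2054 and 1941 CPM in JA_JA, a change of 10.2-fold, log2 change 3.35 ± 0.12, edgeR adjusted p = 6.8e-12, while DHAR2 fell 1.40-fold with 1 JA_JA library inside the JA_W range. The DHAR2 fall (adjusted p = 0.0411 by edgeR) was not called without JA_W replicates 1 or 2 or JA_JA replicates 1, 2 or 3, with adjusted p-values from 0.0671 to 0.145, nor with the replicate number as a block (adjusted p = 0.0621) or without a low-count filter (adjusted p = 0.0519). Of the DHAR1 stretches of 50 bases 15.4% occur elsewhere in the genome. GSH2, glutathione synthetase, rose 2.74-fold. Of 13 tested ascorbate and glutathione genes 5 rose and 2 fell (median log2 change 0.16), and of 9 tocopherol genes 4 rose and none fell (0.23), or 3 and 1 with library-total scaling. Both counts stand beside the same shares of all genes. TAT3, a tyrosine aminotransferase, was among the least even genes at 30.9, 11.1, 14.2 and 11.4 CPM in JA_W and 237, 70.4, 71.6 and 369 CPM in JA_JA. Replicates 1 and 4 of JA_JA were more than 3 times replicates 2 and 3, without overlap with JA_W (11.1-fold, log2 change 3.47 ± 0.63, edgeR adjusted p = 7.8e-04).

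In sugar use, 6 of 18 tested genes rose and 2 fell, beside 15.4% and 16.5% of all genes, with a median log2 change of 0.30. BAM5, a beta-amylase, stood at 23.7, 29.4, 18.9 and 21.9 CPM in JA_W and 273, 303, 322 and 291 CPM in JA_JA, a change of 12.7-fold, log2 change 3.66 ± 0.25, edgeR adjusted p = 2.4e-08. SWEET12, a sucrose exporter of the leaf, rose 6.599-fold, and ASN1, asparagine synthetase, rose 8.76-fold. The galactinol synthases, which begin raffinose synthesis, moved in opposite directions. GolS1 stood at 28.9, 18.6, 21.8 and 16.96 CPM in JA_W and 331, 358, 354 and 293 CPM in JA_JA, a rise of 15.5-fold, log2 change 3.95 ± 0.18, edgeR adjusted p = 5.3e-11. GolS2 stood at 2.79, 4.36, 4.75 and 3.73 CPM in JA_W and 0.373, 0.252, 0.359 and 0.134 CPM in JA_JA, a fall of 13.97-fold, log2 change -3.77 ± 0.34, edgeR adjusted p = 4.2e-07. GolS3 fell 5.20-fold and the raffinose synthase gene RS5 fell 1.62-fold. The groups overlapped for none of these 4 genes.

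**Figure D2:**
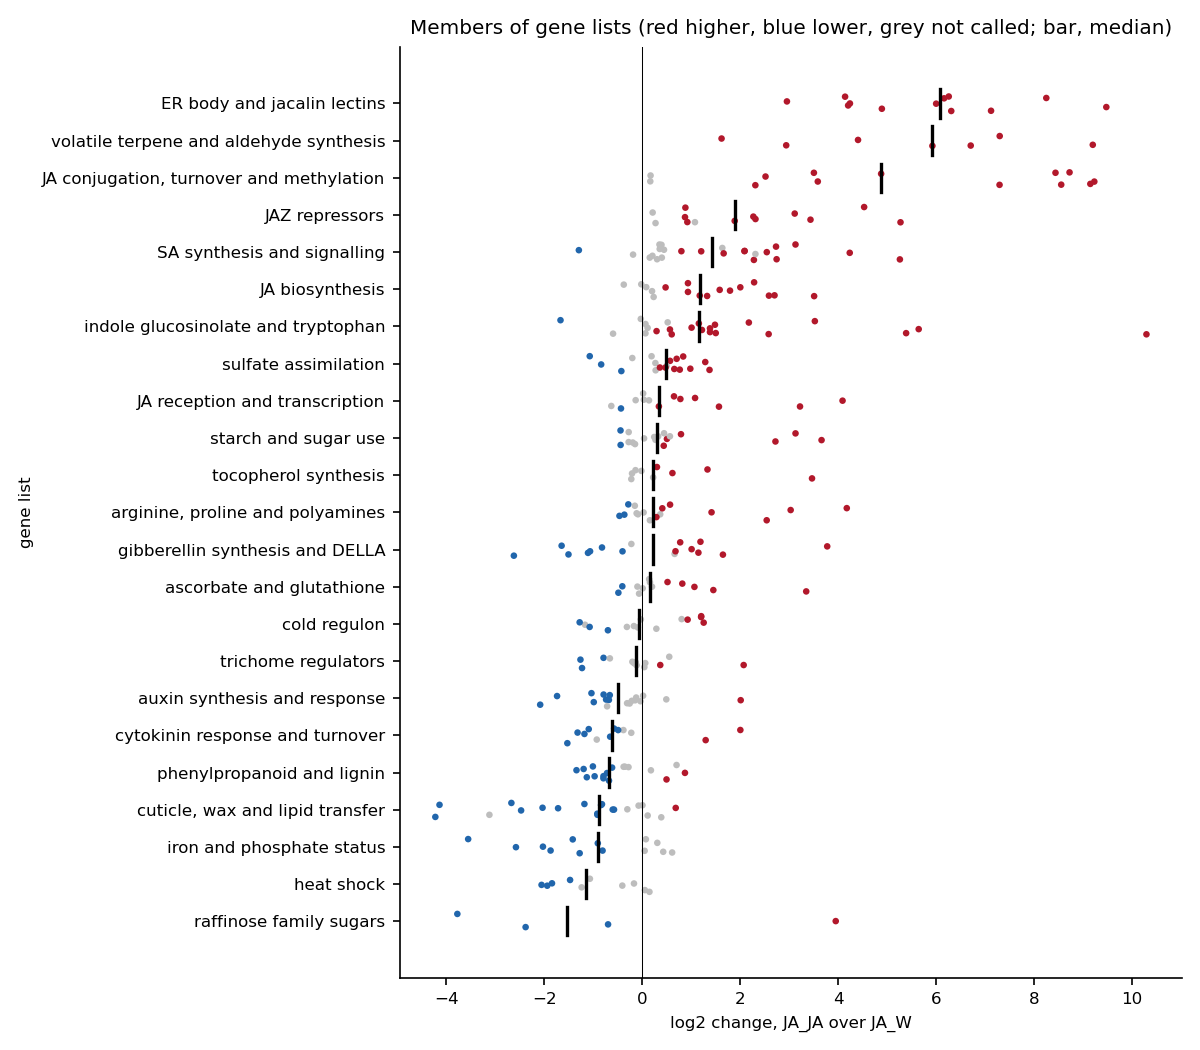
Log2 change (JA_JA over JA_W, horizontal axis) of each tested member of 23 gene lists (vertical axis), 1 point per gene, coloured where called at an adjusted p under 0.05, with the list median as a bar. The medians run from 6.08 for ER bodies and jacalin lectins to -1.54 for the raffinose family.

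Where either group reached a mean of 1 CPM, the deepest falls were in genes of low level. LBD1, a LOB-domain transcription factor, stood at 1.63, 2.75, 2.23 and 1.79 CPM in JA_W and 0, 0.0316, 0.131 and 0.101 CPM in JA_JA, a fall of 31.9-fold, log2 change -4.97 ± 0.47, edgeR adjusted p = 5.7e-07. The receptor-like protein gene RLP21 fell 20.8-fold, with JA_W replicate 1 the highest library. WAG1, a kinase that acts on auxin transporters, stood at 1.08, 1.08, 1.48 and 1.70 CPM in JA_W and 0.115, 0.126, 0.0653 and 0.0672 CPM in JA_JA, a fall of 14.3-fold, log2 change -3.77 ± 0.31, edgeR adjusted p = 1.0e-07. AT1G65500, of unknown function, fell 16.3-fold, the exonuclease family gene AT3G27970 11.8-fold, AT3G46880, also of unknown function, 10.9-fold and the GDSL lipase-like gene AT4G28780 10.99-fold. No JA_JA library of these 4 genes reached a JA_W library. The log2 change of AT1G65500 was -4.03, or -3.42 without JA_W replicate 1, and that of AT3G27970 was -3.48, or -4.13 without JA_JA replicate 2.

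Of 20 tested genes of cuticle, wax and lipid transfer 13 fell and 1 rose, beside 16.5% and 15.4% of all genes, with a median log2 change of -0.87. WSD1, a wax ester synthase, stood at 5.20, 8.52, 6.32 and 8.07 CPM in JA_W and 0.144, 0.316, 0.424 and 0.639 CPM in JA_JA, a fall of 18.5-fold, log2 change -4.22 ± 0.53, edgeR adjusted p = 2.0e-05. LTP3, a lipid transfer protein, stood at 8.30, 26.6, 14.1 and 14.6 CPM in JA_W and 0.316, 0.789, 1.27 and 1.28 CPM in JA_JA. JA_W replicate 2 was the highest library, and every JA_JA library was below 2 CPM (17.4-fold, log2 change -4.13 ± 1.02, edgeR adjusted p = 0.00638). KCS12, a fatty acid elongase, fell 5.54-fold. CER3, which acts in alkane formation, was the 1 member that rose, at 88.8, 72.9, 68.9 and 70.1 CPM in JA_W and 104, 109, 142 and 129.9 CPM in JA_JA (1.61-fold, log2 change 0.69 ± 0.13, edgeR adjusted p = 9.3e-04). In the phenylpropanoid and lignin pathway 10 of 17 tested genes fell and 2 rose, beside the same shares of all genes, with a median of -0.68. HCT, which commits the pathway to lignin monomers, stood at 247, 262, 324 and 320.3 CPM in JA_W and 116, 119, 138 and 131 CPM in JA_JA, a fall of 2.29-fold, log2 change -1.19 ± 0.14, edgeR adjusted p = 5.3e-06. FAH1 (AT4G36220), ferulate 5-hydroxylase, fell 2.19-fold and 4CL3, a coumarate ligase of flavonoid synthesis, fell 2.53-fold. PAL1, the entry enzyme, rose 1.41-fold and CAD5, a cinnamyl alcohol dehydrogenase, rose 1.84-fold with overlapping groups. The PAL1 rise was not called without JA_W replicate 1 and JA_JA replicate 4 (adjusted p = 0.0527), nor the CAD5 rise when only the 2 groups were fitted (adjusted p = 0.0737).

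Most called genes of auxin and cytokinin fell, and those of gibberellin were split, where 15.4% of all genes rose and 16.5% fell. Of 18 tested auxin genes 8 fell and 1 rose (median -0.48), and of 14 SAUR genes, short-lived auxin-induced messages, 9 fell and 1 rose (median -0.96). IAA19, an auxin repressor, stood at 1.94, 2.39, 1.99 and 1.97 CPM in JA_W and 0.517, 0.505, 0.751 and 0.168 CPM in JA_JA, a fall of 4.27-fold, log2 change -2.08 ± 0.28, edgeR adjusted p = 2.9e-05. GH3.3, which conjugates auxin to amino acids, was the 1 auxin gene that rose (4.12-fold), with a log2 change of 2.01, or 2.69 without JA_W replicate 1. Of 12 tested cytokinin genes 7 fell and 2 rose (median -0.61). Those that rose were the cytokinin oxidases CKX5 (4.03-fold) and CKX4 (2.46-fold), and those that fell included the response regulators ARR6 at 27.0, 35.4, 29.7 and 27.7 CPM in JA_W and 10.8, 11.4, 11.98 and 7.46 CPM in JA_JA and ARR7 at 25.1, 34.4, 30.3 and 30.5 CPM in JA_W and 9.97, 14.8, 13.7 and 9.75 CPM in JA_JA. The groups were apart for both, with falls of 2.88-fold and 2.49-fold. Of the ARR6 exons 23.9% and of the CKX5 exons 28.8% overlap a gene on the other strand. GA3OX1, which makes active gibberellin, stood at 11.4, 18.21, 15.5 and 16.6 CPM in JA_W and 1.98, 3.85, 2.25 and 1.95 CPM in JA_JA, a fall of 6.14-fold, log2 change -2.62 ± 0.22, edgeR adjusted p = 1.1e-07. RGL3, a DELLA repressor of gibberellin responses, stood at 1.05, 1.14, 0.772 and 0.941 CPM in JA_W and 13.4, 13.7, 14.1 and 12.47 CPM in JA_JA, a rise of 13.8-fold, log2 change 3.78 ± 0.18, edgeR adjusted p = 8.0e-11. GA2OX2, which inactivates gibberellin, rose 3.15-fold, and over the list 7 of 16 rose and 7 fell.

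Cell wall and water channel genes went different ways, where 15.4% of all genes rose and 16.5% fell. Of 18 tested expansin genes, which loosen the wall, 7 fell, each more than 2-fold, and none rose, while DESeq2 called 9 lower and 1 higher, the fit of only the 2 groups 11 lower and 1 higher, library-total scaling 11 lower, and the fit without JA_W replicate 1 and JA_JA replicate 4 gave 8 lower and 1 higher. EXPA11 stood at 13.8, 20.4, 26.4 and 28.4 CPM in JA_W and 2.67, 4.95, 5.81 and 2.55 CPM in JA_JA, a fall of 5.56-fold, log2 change -2.48 ± 0.43, edgeR adjusted p = 5.5e-04. EXPB3 fell 4.27-fold and EXPA8 3.95-fold, the latter not called without JA_JA replicate 1 (adjusted p = 0.0531). Xyloglucan endotransglucosylase genes were mixed, 6 of 18 rising and 2 falling (7 and 4 without JA_W replicate 1 and JA_JA replicate 4), beside 15.4% and 16.5% of all genes. XTH24 rose 3.68-fold while XTH31 stood at 251, 584, 430.4 and 434 CPM in JA_W and 87.2, 146, 119.8 and 104 CPM in JA_JA, a fall of 3.72-fold, log2 change -1.90 ± 0.44, edgeR adjusted p = 0.00463. Of 22 tested aquaporin genes 7 rose and 1 fell (median 0.12), to set beside the same shares. Among them was PIP3, a plasma membrane channel, at 62.4, 61.7, 65.9 and 72.8 CPM in JA_W and 143, 190.3, 206 and 146 CPM in JA_JA (2.61-fold, log2 change 1.38 ± 0.17, edgeR adjusted p = 1.0e-05).

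Of 13 tested genes of iron and phosphate status 8 fell and none rose, beside 16.5% and 15.4% of all genes, with a median log2 change of -0.90. The iron-deficiency factor bHLH100 stood at 0.415, 0.777, 1.07 and 1.61 CPM in JA_W and 0.0287, 0.221, 0.0326 and 0.0336 CPM in JA_JA, a fall of 12.3-fold, log2 change -3.55 ± 0.71, edgeR adjusted p = 0.00114. Without JA_JA replicate 2, the highest challenged library, its log2 change was -4.76. MGD3, a galactolipid synthase of phosphate starvation, fell 4.08-fold. Among 10 tested heat shock genes 4 fell and none rose (median -1.15), to set beside the same shares of all genes. HSP90.1 stood at 141, 23.3, 28.4 and 42.5 CPM in JA_W and 9.25, 7.48, 13.4 and 26.8 CPM in JA_JA. JA_W replicate 1 was more than 3 times any other library, and JA_JA replicate 4 lay inside the JA_W range (4.14-fold, log2 change -2.05 ± 0.53, edgeR adjusted p = 0.00889). Without JA_W replicate 1 its log2 change was -1.15. None of the 10 was called when only JA_W and JA_JA were fitted, and without JA_W replicate 1 and JA_JA replicate 4 the median was -0.57. Of 14 tested cold genes 4 rose and 3 fell, where 15.4% of all genes rose and 16.5% fell. With library-total scaling 3 rose and 3 fell. KIN2 rose 2.31-fold, while RD29A stood at 209, 363, 304 and 303 CPM in JA_W and 123, 134, 150.0 and 154 CPM in JA_JA, a fall of 2.10-fold, log2 change -1.07 ± 0.17, edgeR adjusted p = 1.1e-04.

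Several of the most abundant leaf transcripts lost reads. ESM1, an epithiospecifier modifier that shapes glucosinolate breakdown, stood at 2634, 3760.5, 3655 and 3897 CPM in JA_W and 954, 1733, 1579.9 and 1235 CPM in JA_JA. The groups did not overlap, and the fall was 2.53-fold, log2 change -1.34 ± 0.24, edgeR adjusted p = 5.3e-04. Of its 50-base stretches 24.9% occur elsewhere in the genome. FBA2, a chloroplast aldolase, fell 1.499-fold, CA1, a carbonic anhydrase, 1.48-fold and GAPB, a Calvin cycle dehydrogenase, 1.45-fold. For these 3 genes JA_W replicate 1 was the lowest unchallenged library, above every JA_JA library. The FBA2 call was lost without JA_JA replicate 1 (adjusted p = 0.0582) or JA_W replicate 2 (adjusted p = 0.0514), the GAPB call without JA_JA replicate 1 (adjusted p = 0.0592), and the CA1 call without any JA_JA replicate or any of JA_W replicates 2 to 4, with adjusted p-values from 0.0529 to 0.131, or with the replicate number as a block (adjusted p = 0.0608). RD22, a dehydration-responsive gene, fell 2.55-fold. AT1G73600, a methyltransferase gene, stood at 1084, 1946, 1819 and 1774 CPM in JA_W and 335, 387, 337 and 374 CPM in JA_JA, a fall of 4.62-fold, log2 change -2.21 ± 0.23, edgeR adjusted p = 2.2e-06, and moved from rank 80 to rank 434 per kilobase of exon.

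Transcription factor families held changes in both directions. Of 52 tested WRKY genes 14 rose and 6 fell, of 51 MYB genes 13 rose and 10 fell, of 55 NAC genes 5 rose and 4 fell, and of 46 AP2/ERF genes 12 rose and 11 fell, shares to set beside 15.4% and 16.5% of all genes. The balance of the last 3 families turned or levelled with the setting. Fitting only the 2 groups gave 10 rises and 11 falls of MYB genes and 11 and 11 of AP2/ERF genes. Library-total scaling gave 5 and 5 of NAC genes and 9 and 11 of AP2/ERF genes. Without JA_W replicate 1 and JA_JA replicate 4 there were 3 and 3 of NAC genes and 12 and 12 of AP2/ERF genes, and DESeq2 called 8 and 4 NAC genes. ERF13 rose 12.52-fold and MYB15 3.74-fold. The log2 change of MYB15 was 1.88, or 2.67 without JA_W replicate 1. MYB47 stood at 5.95, 6.82, 7.36 and 7.19 CPM in JA_W and 0.661, 1.01, 1.11 and 1.11 CPM in JA_JA, a fall of 7.02-fold, log2 change -2.81 ± 0.20, edgeR adjusted p = 2.2e-08. The flavonol regulators MYB11 and MYB111 fell 4.95-fold and 4.00-fold, the cytokinin response factor CRF2 4.93-fold, and ERF2 3.83-fold. WRKY30 fell 7.02-fold with JA_W replicate 1 the highest library, its log2 change of -2.83 becoming -2.23 without it. Among enzyme and receptor families, 24 of 113 cytochrome P450 genes rose and 18 fell (22 and 30 with library-total scaling, 24 and 24 with upper-quartile scaling), 8 of 40 glutathione S-transferases rose and 1 fell (10 and 2 by DESeq2, 11 and 2 without JA_W replicate 1 and JA_JA replicate 4), and 3 of 34 cysteine-rich receptor kinases rose and 8 fell. CRK41 of the last group stood at 50.0, 58.6, 61.5 and 60.6 CPM in JA_W and 13.4, 17.8, 21.4 and 21.6 CPM in JA_JA, a fall of 3.11-fold, log2 change -1.64 ± 0.19, edgeR adjusted p = 6.7e-06. GSTF9 rose 1.97-fold, and ABCG34, a transporter of the ABC class, rose 3.44-fold.

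Among genes of salicylic acid (SA), a hormone of defence against biotrophic pathogens, rises outnumbered falls and levels differed widely between libraries. Of 24 tested SA genes 12 rose and 1 fell, beside 15.4% and 16.5% of all genes, with a median log2 change of 1.42. WRKY70, a factor of SA responses, stood at 7.03, 8.52, 9.95 and 16.4 CPM in JA_W and 80.3, 74.7, 29.4 and 93.7 CPM in JA_JA. JA_JA replicate 3 was the lowest challenged library and JA_W replicate 4 the highest unchallenged one, without overlap (6.64-fold, log2 change 2.73 ± 0.32, edgeR adjusted p = 1.2e-05). WRKY54, its close relative, stood at 3.87, 4.75, 3.95 and 9.56 CPM in JA_W and 53.9, 50.5, 16.1 and 73.0 CPM in JA_JA, with the same 2 libraries at the inner edges, and rose 8.75-fold, log2 change 3.13 ± 0.40, edgeR adjusted p = 4.0e-05. LURP1, a gene late in the response to a pathogen, stood at 5.48, 5.59, 10.09 and 36.0 CPM in JA_W and 232, 40.4, 22.8 and 259 CPM in JA_JA. Here the groups overlapped, JA_JA replicate 3 being below JA_W replicate 4 (9.69-fold, log2 change 3.28 ± 0.77, edgeR adjusted p = 0.00460). Its log2 change was 4.30 without JA_W replicate 4 and 2.52 without JA_W replicate 1 and JA_JA replicate 4, and it was not called when only the 2 groups were fitted (adjusted p = 0.0506). GRX480, a glutaredoxin, stood at 0.553, 0.0299, 0.297 and 0.0910 CPM in JA_W and 5.77, 9.69, 4.54 and 18.7 CPM in JA_JA, a change of 39.9-fold, log2 change 5.26 ± 0.62, edgeR adjusted p = 1.8e-05, with a log2 change of 6.07 without JA_W replicate 1. SARD1, a factor that promotes SA synthesis, rose 6.71-fold, and 18.4% of its exon sequence overlaps a gene on the other strand. PR5, a pathogenesis-related protein, was the 1 gene that fell, at 105, 138, 115 and 111 CPM in JA_W and 44.6, 41.0, 38.6 and 67.6 CPM in JA_JA (2.45-fold, log2 change -1.29 ± 0.35, edgeR adjusted p = 0.0108). PR2, another pathogenesis-related gene, was among the genes raised more than 4-fold. Without JA_W replicate 1 and JA_JA replicate 4 the list had 10 rises and 1 fall, and its median was 1.01.

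**Figure D3:**
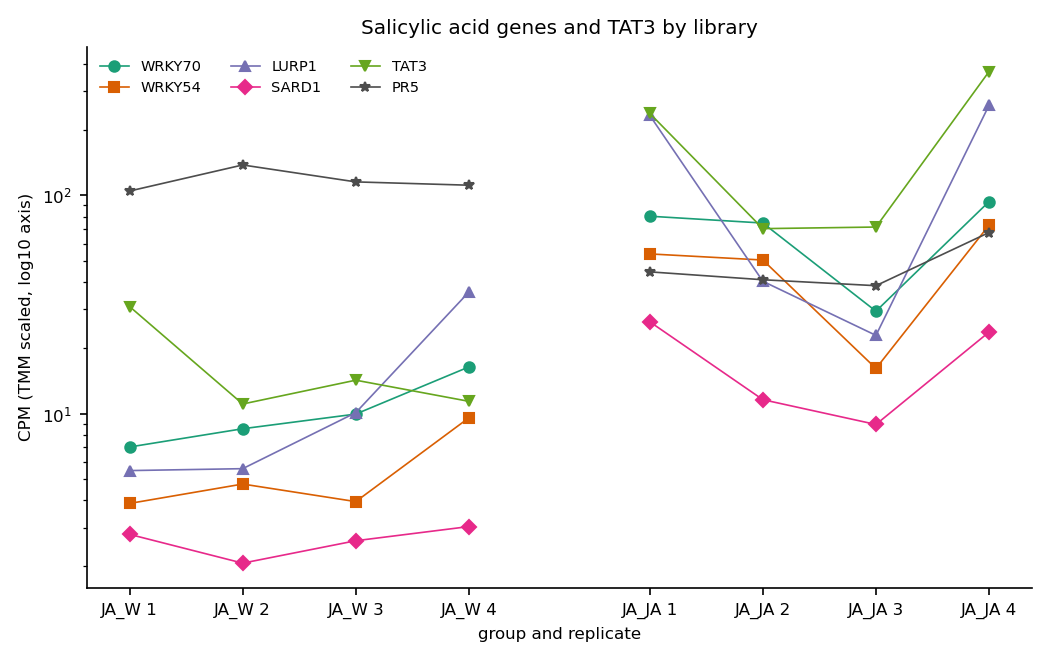
CPM on a log10 axis (vertical) in each of the 8 libraries (horizontal axis) for 6 genes, joined by gene within a group for reading only. JA_JA replicate 3 is low for WRKY70 (29.4 CPM), WRKY54 (16.1 CPM) and LURP1 (22.8 CPM), and JA_W replicate 4 is the highest unchallenged library for all 3.

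Whether the second response differed from that of plants without JA history was tested by the interaction, the log2 change of JA_JA over JA_W minus that of W_JA over W_W. The interaction compares ratios, so a smaller or larger rise below can reflect the starting level as well as the level reached. It was called for 3539 genes (18.4%), or 2344 without JA_W replicate 2, and the estimate was above 0 for 1539 of them (8.01%) and below 0 for 2000 (10.4%). That balance turned with DESeq2 (2211 above 0 and 2014 below), with RLE scaling (1792 and 1657), without JA_JA replicate 2 (1661 and 1346) and without JA_JA replicate 3 (1575 and 1389). Of the 353 genes raised more than 4-fold, 288 were also called higher after the challenge of water-history plants, 5 were called lower, 60 were not called, and 128 had a called interaction. Of all genes tested, 13.9% were called higher and 12.9% lower in water-history plants, and 18.4% had a called interaction. The smaller rises included VSP2, whose log2 change was 5.88 ± 0.27 with JA history and 9.54 ± 0.32 without, an interaction of -3.65 ± 0.33 (edgeR adjusted p = 1.1e-05). VSP1 had 8.25 ± 0.32 and 10.54 ± 0.36, with an interaction of -2.28 ± 0.38 (edgeR adjusted p = 0.00112). For the Kunitz inhibitor gene AT1G73325 the values were 4.09 ± 0.39 and 9.24 ± 0.58, an interaction of -5.14 ± 0.72 (edgeR adjusted p = 5.8e-04) that became -4.42 without JA_W replicate 1. CSLA01, a glucomannan synthase, had 4.24 ± 0.23 and 8.70 ± 0.30, an interaction of -4.47 ± 0.35 (edgeR adjusted p = 3.9e-06). BGLU18 and AOS also rose by less with JA history, with interactions of -1.48 ± 0.22 (edgeR adjusted p = 5.9e-04) and -0.79 ± 0.19 (edgeR adjusted p = 0.0107).

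Larger rises with JA history included LAS1, lanosterol synthase, at 0.0277, 0.0897, 0.119 and 0.0303 CPM in JA_W and 18.3, 12.8, 19.9 and 21.1 CPM in JA_JA. Its log2 change was 8.01 ± 0.52 with JA history and 3.19 ± 0.30 without, an interaction of 4.82 ± 0.70 (edgeR adjusted p = 6.0e-04). NATA1 had 8.89 ± 0.46 and 6.51 ± 0.41, an interaction of 2.37 ± 0.48 (edgeR adjusted p = 0.00422), and JAL34 one of 1.85 ± 0.41 (edgeR adjusted p = 0.00658). NIMIN1, a protein that binds the SA receptor NPR1, rose by 2.54 ± 0.44 with JA history and changed by -1.98 ± 0.27 without, an interaction of 4.53 ± 0.51 (edgeR adjusted p = 6.3e-05). For WRKY70 the interaction was 3.29 ± 0.43 (edgeR adjusted p = 3.6e-04) and for GRX480 4.05 ± 0.78 (edgeR adjusted p = 0.00347), the latter 4.86 without JA_W replicate 1. Over the SA list 11 of 24 interactions were called more positive. Over the WRKY family 17 of 52 were called more positive and none more negative. Of all genes 8.01% were called more positive and 10.4% more negative. Without JA history the WRKY family had 5 rises and 22 falls, where 13.9% of all genes rose and 12.9% fell. LBD1 fell in both, by more with JA history, with log2 changes of -4.97 ± 0.47 with and -1.64 ± 0.28 without and an interaction of -3.33 ± 0.60 (edgeR adjusted p = 0.00173). LTP3 and MYB47 fell with JA history and were not called without it, at 0.63 ± 0.86 and -0.14 ± 0.18, and their interactions were -4.76 ± 1.33 (edgeR adjusted p = 0.0238) and -2.67 ± 0.27 (edgeR adjusted p = 2.8e-05). RD29A changed by -1.07 ± 0.17 with JA history and 0.88 ± 0.17 without, an interaction of -1.95 ± 0.23 (edgeR adjusted p = 1.1e-04). The LTP3 interaction was not called without JA_JA replicate 1 (adjusted p = 0.0566) or W_JA replicate 3 (-2.51, adjusted p = 0.0687).

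**Figure D4:**
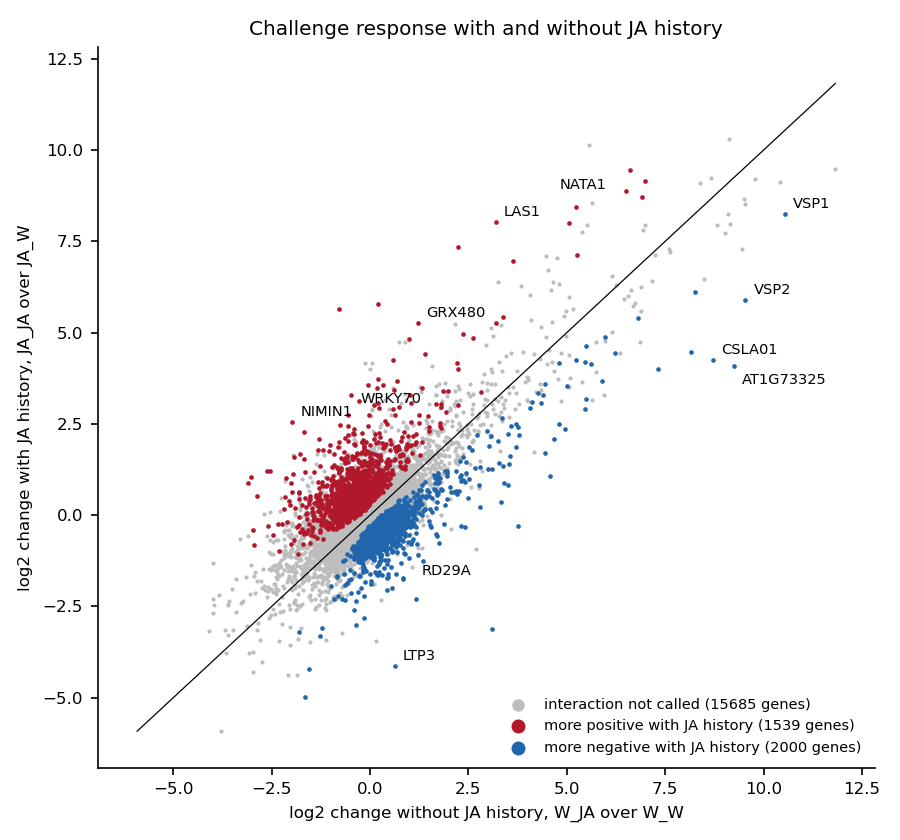
Log2 change after the challenge with JA history (JA_JA over JA_W, vertical axis) against that without (W_JA over W_W, horizontal axis) for all 19224 genes tested, 1 point per gene, with the 3539 genes of called interaction coloured and the line of equality drawn. VSP2, AT1G73325 and CSLA01 lie below the line and LAS1, NIMIN1 and GRX480 above it.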

How the data were processed

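RNA-seq was run on poly(A)-selected RNA with 50-base single-end reads, per the labels' protocols. Per the file headers, each deposited file also holds CPM, the counts scaled by the authors to the library total, used here only to check the counts. The deposited values used are whole-number read counts per gene, 1 file per library, and the submitters' processing notes name Trimmomatic 0.38, STAR 2.6.1b, HTSeq 0.9.1 and genome build TAIR10; counting settings and strandedness are not given in the sources used here. Group membership came from the sample titles. The labels call the 4 libraries of a group biological replicates.

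Counts of all 16 libraries were fitted together in edgeR 4.0.16 (R 4.3.3) with TMM scaling, filterByExpr (minimum count 10, total 15), 1 mean per group and robust quasi-likelihood F-tests with Benjamini-Hochberg adjustment over 19224 genes at 0.05. The common biological coefficient of variation was 15.4%. Totals of 32190193 to 34319939 reads per library make counting error small for all but the lowest genes. For a gene with no read in 1 group the fold is a lower bound against 3 reads over the group, and for 1 to 3 reads it is a count ratio with a 95% interval, which covers counting error only. Counts were also simulated for this comparison (19068 genes), with only 50 genes changed at each of 1.25-, 1.5-, 2- and 4-fold. There 28% of 1.5-fold, 74% of 2-fold and 92% of 4-fold changes were recovered, and 4.72% of calls were false. The real libraries gave 6138 calls (31.9%), far more than the simulation changed. Both rates can depend on how many genes change, so they cannot be taken as the rates of the real comparison. Within each group no libraries were copies of each other, and pairs from different groups were not examined for this.

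Gene names, exon lengths and upstream windows came from RefSeq TAIR10.1. The gene lists, families and the comparison itself were chosen with earlier results of these data known. Genes named were drawn from the 10 largest rises and falls among called genes whose groups do not overlap and whose mean is at least 1 CPM in 1 group, the 10 largest gains and losses of CPM, the 8 largest rises and falls of 4 transcription factor families, up to 4 members of each list and 3 of each family per direction, and the 6 most extreme interactions each way. Alternatives were DESeq2 1.42.0, RLE, upper-quartile and library-total scaling, other count filters, a fit of the 2 groups only, a replicate block, a 2-fold threshold and leaving out each library.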

Additional observations from a re-analysis of the deposited data

Results flagged for a closer look

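In 24 of the 256 sets of 4 libraries examined, JA_W and JA_JA for each of 128 genes named in the text, 1 library stood apart from the other 3 by Dixon's 95% criterion, which flags about 1 in 20 sets by chance. JA_JA replicate 1 was the lowest of its group for VSP1 (2254 CPM), AT3G28220 (2982 CPM), CYP81F4 (3.33 CPM), FAH1 (AT4G36220) (63.5 CPM), FBA2 (2922 CPM) and GAPB (1612 CPM). JA_JA replicate 2 was the highest of its group for 4CL3 (7.32 CPM), GA3OX1 (3.85 CPM) and bHLH100 (0.221 CPM) and the lowest for JAZ10 (12.3 CPM). JA_JA replicate 3 was the lowest of its group for AT3G46880 (0.0653 CPM). JA_JA replicate 4 was the highest of its group for WRKY30 (1.41 CPM). JA_W replicate 1 was the highest of its group for AOC1 (203 CPM), OPR3 (77.0 CPM), TPS04 (0.498 CPM), AT1G73325 (15.9 CPM), TAT3 (30.9 CPM) and HSP90.1 (141 CPM) and the lowest for GolS3 (12.9 CPM). JA_W replicate 2 was the highest of its group for TPS02 (0.0598 CPM) and IAA19 (2.39 CPM). JA_W replicate 4 was the highest of its group for WRKY54 (9.56 CPM), LURP1 (36.0 CPM) and ABCG18 (8.19 CPM).

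The challenge effect differed between JA-history and water-history plants for 48 of the named genes by edgeR's interaction test, where 18.4% of all genes were called. The named genes were drawn in part from the most extreme called interactions, so their share is set by that choice. The values are interaction estimates in log2 units, JA history minus water history. More negative with JA history were AT1G73325 (-5.14), LTP3 (-4.76), CSLA01 (-4.47), VSP2 (-3.65), MYB11 (-3.46), LBD1 (-3.33), MYB47 (-2.67), WSD1 (-2.66), GL3 (-2.60), VSP1 (-2.28), BAM5 (-2.24), RD29A (-1.95), MYB111 (-1.77) and EGL3 (-1.67). Also more negative were CRF2 (-1.59), 4CL3 (-1.57), GIS (-1.51), BGLU18 (-1.48), IGMT5 (-1.42), AT1G73600 (-1.40), CORI3 (-1.27), AT3G28220 (-1.26), MYC4 (-1.17), DHAR1 (-0.92), TRY (-0.80), AOS (-0.79), KIN2 (-0.70), ARGAH2 (-0.62) and ARGAH1 (-0.38). More positive with JA history were LAS1 (4.82), NIMIN1 (4.53), GRX480 (4.05), LURP1 (3.76), WRKY54 (3.41), WRKY70 (3.29), AAP3 (3.02), RAP2.6 (2.84), SARD1 (2.77), NATA1 (2.37), GH3.3 (2.23), JRG21 (2.15), JAZ7 (2.08), JAL34 (1.85), ST2A (1.81), AT5G38710 (1.498), ERD5 (0.98), PIP3 (0.90) and GSH2 (0.70). No estimate changed sign under any alternative. Apart from the 2-fold threshold, 36 of the 48 calls held under every alternative run. That threshold removes calls with estimates smaller than 1 log2 unit, namely DHAR1, TRY, AOS, KIN2, ARGAH2, ARGAH1, ERD5, PIP3 and GSH2. Those lost under at least 1 of the other alternatives were JRG21, ST2A, JAZ7, ARGAH2, ARGAH1, RAP2.6, WSD1, LTP3, GH3.3, MYB111, GL3 and EGL3. Leaving out 1 library moved the estimate by over 1.5-fold on the unlogged scale for 7 of the 48. Without JA_W replicate 1 it became -4.42 for AT1G73325, 4.86 for GRX480 and 2.90 for GH3.3. For LURP1 it became 4.78 without JA_W replicate 4. Without W_JA replicate 3 it became -2.51 for LTP3, -2.55 for MYB11 and -1.66 for WSD1. Without both JA_W replicate 1 and JA_JA replicate 4 it was 3.00 for LURP1. Explanations were not tested.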

How the results depend on the processing

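Counts of genes called in JA_JA against JA_W moved by less than 1.5 times under each alternative except a 2-fold threshold, which left 1492 in all, 936 higher and 556 lower. That threshold left 1466 genes in W_JA against W_W, 872 interactions and 145 called members of the 30 gene lists. Leaving out 1 library at a time gave from 4894 to 6068 in all for JA_JA against JA_W, 4204 to 5459 for W_JA against W_W, and 2344 to 4407 interactions. Without JA_W replicate 2 the interaction count fell from 3539 to 2344. All 128 named genes kept their direction under every alternative run. For the challenge effect, the 2-fold threshold removed the calls of 13 named genes. Other calls lost are given beside the genes in the text. So are values moved by over 1.5-fold on the unlogged scale by leaving out 1 library. Replicate numbers were not used as pairs in the main fit. The correlations of deviations of same-numbered JA_W and JA_JA libraries were 0.037, 0.339, 0.040 and -0.085. These values cannot decide whether same-numbered libraries were handled together. With the replicate number as a block 2741 genes were higher and 2935 lower, and the interaction count was 3153. DESeq2 gave 3306 higher and 3219 lower. In the cuticle and auxin lists 2 genes rose in place of 1 by DESeq2 and in the fit of only the 2 groups, and 2 SAUR genes rose in place of 1 by DESeq2. Both libraries that stand apart were left out as a choice made after seeing the data. Depth limits genes near 0 CPM, and 2 plants per pooled library limit what the spread between libraries says of single plants.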

Other observations

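Of 13 tested trichome regulators 2 rose and 3 fell, close to the shares of all genes (15.4% and 16.5%), with a median log2 change of -0.13. GL3, a bHLH factor that promotes trichomes, stood at 0.858, 0.448, 0.267 and 0.303 CPM in JA_W and 2.04, 1.89, 1.76 and 2.32 CPM in JA_JA. The groups did not overlap, and the rise was 4.27-fold, log2 change 2.07 ± 0.38, edgeR adjusted p = 5.9e-04. Its close relative EGL3 stood at 1.47, 1.88, 1.45 and 1.76 CPM in JA_W and 0.776, 0.726, 0.784 and 0.504 CPM in JA_JA, a fall of 2.35-fold, log2 change -1.23 ± 0.24, edgeR adjusted p = 0.00108. GIS, a zinc finger factor, fell 2.39-fold, and the single-repeat MYB repressor TRY fell 1.73-fold.

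Carriers of sugars and amino acids rose more often than they fell, 17 of 58 tested genes against 8, where 15.4% and 16.5% of all genes did. Without JA_W replicate 1 and JA_JA replicate 4 they were 16 and 5. AAP3, an amino acid permease, stood at 0.166, 0.0897, 0.178 and 0.182 CPM in JA_W and 5.46, 1.83, 3.72 and 2.35 CPM in JA_JA, with JA_JA replicate 1 the highest library and no overlap (21.7-fold, log2 change 4.41 ± 0.41, edgeR adjusted p = 4.7e-07). Of 91 tested MATE and ABC transporter genes 12 rose and 14 fell, or 12 and 23 with library-total scaling and 18 and 15 without JA_W replicate 1 and JA_JA replicate 4. The rises were led by ABCG18 at 5.56, 5.53, 5.85 and 8.19 CPM in JA_W and 31.7, 36.2, 37.9 and 43.5 CPM in JA_JA (5.94-fold, log2 change 2.57 ± 0.24, edgeR adjusted p = 8.4e-07). Of 43 tested receptor-like protein genes 8 rose and 6 fell, or 7 and 8 with library-total scaling and 6 and 7 without JA_W replicate 1 and JA_JA replicate 4. RLP53 stood at 0.747, 0.389, 0.178 and 0.182 CPM in JA_W and 11.98, 7.79, 13.97 and 23.3 CPM in JA_JA, a rise of 38.2-fold, log2 change 5.21 ± 0.50, edgeR adjusted p = 2.2e-06, with a log2 change of 5.81 without JA_W replicate 1, and 12.9% of its 50-base stretches occur elsewhere in the genome. Of 42 tested UDP-glycosyltransferase genes 9 rose and 3 fell, or 8 and 5 with library-total scaling and 12 and 6 without JA_W replicate 1 and JA_JA replicate 4.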
